A study of Mus musculus with 21 samples.

Results

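The genes described here are the mouse chemokines, the small secreted or membrane-held proteins that direct cell migration, and their receptors. They were chosen by name: every non-control probe of the arrays whose gene name has the form Ccl, Cxcl, Ccr or Cxcr with a number, or is Cx3cl1, Cx3cr1, Xcl1 or Xcr1. The probe with the highest mean signal over all arrays stood for each gene. The rule gave 53 genes, 34 ligands and 19 receptors. Of these, 48 were well above background on at least 4 arrays and were tested, 30 ligands and 18 receptors, among 23736 genes tested in all. Ccl20, Ccl22, Ccl26, Ccr1 and Cxcl15 did not pass this filter. The pattern does not take in ligands whose names carry a further letter, such as Ccl21a and Ccl27a. Cxcr7 is the name in the array files for the gene now called Ackr3.

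Chemokines bind G protein-coupled receptors on leukocytes and on some epithelial and endothelial cells, and the cell moves up the gradient of the ligand. The family is split by the spacing of the first cysteines into CC, CXC, CX3C and XC ligands, and most inflammatory receptors bind several ligands. In liver, resident macrophages, stellate cells, bile duct cells, endothelium and hepatocytes are all known to make chemokines, and the ligands known to draw monocytes and neutrophils are made during injury and in many tumours.

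All mice were of strain C57BL/6J. From untreated Trp53 knockout (KO) mice came 6 tumours of 5 mice, labelled HCC/CCC, for hepatocellular and cholangiocellular carcinoma. The label does not say whether each tumour was mixed. From Trp53 wild-type mice given N-nitrosodiethylamine (DEN) came 7 tumours of 5 mice, labelled as hepatocellular carcinoma. DEN, a carcinogen activated in hepatocytes, had been injected intraperitoneally at 10 µg per g body weight on day 15. Normal tissue came as 4 livers from Trp53 KO mice and 4 from wild-type (WT) animals, none of them treated. The sources used here do not name the cells in which Trp53 was deleted, the exons removed, the sexes or the ages. Tumours of 1 mouse were averaged, so the main tests rest on 18 mice. KO mouse 5, DEN mouse 4 and DEN mouse 5 had 2 tumours each.

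A level is given below as the log2 of the processed intensity minus the 75th percentile of its array, so that 0 is the 75th percentile itself. Levels compare 1 probe between mice and say nothing of 1 gene against another. The 75th percentile was 951.5 to 4257.5 units on the KO tumour arrays, 511.8 to 884 on the DEN tumour arrays, 499.6 to 684.9 on the KO liver arrays and 475.8 to 728.9 on the WT liver arrays. The 3 arrays of KO mice 4 and 5 shared 1 slide and were the brightest, and a probe below background reads as a lower level on a brighter array. Every slide held 1 group only, so the slide entered as a random block where it was tried. The 2 tumours of DEN mouse 4 lay on different slides, as did those of DEN mouse 5. In the fits with slide or scan day as a block they entered separately, with no term for the mouse. The WT livers alone filled their scan day, so scan day and group cannot be told apart in any comparison with WT liver. The Trp53 probe was lower in every KO tumour and KO liver than in any DEN tumour or WT liver, but whether it lies in the deleted part is not known. KO mice 1 and 2 had 0 of 5 Y-linked probes above background, against at least 2 on every other array. Because the tissue was measured in bulk, fewer cells of a type and less RNA per cell cannot be told apart in any value below.

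Cell type markers moved with the groups. The 8 hepatocyte markers (Alb, Cyp2e1 and others) were all lower in KO tumours than in KO livers, with a median log2 difference of -4.02, and 2 of 8 were lower in DEN tumours than in WT livers. Their mean level was 1.35 to 4.24 in KO tumours and 5.64 to 6.53 in DEN tumours, against 7.28 to 7.50 in KO livers, with WT livers at 7.09 to 7.42. Ptprc (CD45), carried by all leukocytes, was higher in KO tumours than KO livers by 2.27 ± 0.45 (log2 difference ± SE, adjusted p = 0.00044, limma) and higher than in DEN tumours by 1.09 ± 0.42 (limma adjusted p = 0.0349). In DEN tumours against WT livers it differed by 1.18 ± 0.45 (limma adjusted p = 0.0688), which did not pass the threshold of 0.05. The part of these shifts in the results below was not tested. Counts called in a marker list, role, cluster or pathway list are to be read beside the shares of all genes, given next for each comparison.

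In KO tumours 36 of the 48 members tested differed from KO livers at an adjusted p under 0.05 (limma, Benjamini-Hochberg over all genes), 31 of them higher and 5 lower. Over all genes tested 51.0% were called in this comparison, 21.5% higher and 29.5% lower. The median log2 difference was 2.10 over the members, against -0.22 over all genes. For 31 of the 36 the 5 KO tumour mice and the 4 KO livers did not overlap, beside 40.8% of all genes tested. Those 40.8% are called genes: 9689 of the 12098 genes called in all did not overlap, the share that matches 31 of 36. All 12 receptors that were called were higher. With the slide as a random block 22 members were called, 20 of them higher and 2 lower, beside 27.9% of all genes (12.2% higher). The calls lost under it were those of Ccl3, Ccl4, Ccl5, Ccl9, Cxcl3, Cxcl10, Cxcl17, Cxcr3, Cxcr5, Xcl1 and Xcr1 among the higher and Ccl25, Ccl28 and Cxcl11 among the lower. Within scan day 2, which held KO tumour mice 1 to 3, 3 DEN tumour arrays and all KO livers, 36 were called. Of these 32 were higher, beside 54.9% of all genes called (24.8% higher).

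DEN tumours differed from WT livers in 23 members, 20 higher and 3 lower, beside 21.4% of all genes called, 10.5% higher and 10.9% lower. The median log2 difference was 1.03 over the members and 0.04 over all genes. The mice did not overlap for 15 of the 23 called members, beside 4206 of the 5091 genes called in all, a lower share among the members. Of the called members 18 were ligands and 5 were receptors. Every call but that of Ccl2 was lost when the slide was a random block, with 2.23% of all genes called, so that 1 call among the members is no more than this share. After normexp background correction with quantile normalization 14 were called, beside 23.6% of all genes. Calls that ended under that setting were those of Ccl6, Ccl7, Ccl12, Cx3cl1, Cxcl3, Cxcl5, Cxcl16, Cxcr2 and Ccl25. Several calls in DEN tumours also lay near the threshold and were lost without 1 or another mouse. The highest limma adjusted p on leaving out a mouse was 0.104 for Ccl5 (without WT liver mouse 3), 0.0922 for Ccl12 (WT liver mouse 2), 0.093 for Cx3cl1 (WT liver mouse 1) and 0.121 for Cxcl16 (WT liver mouse 1). It was 0.0506 for Cxcl3 (DEN mouse 5), 0.109 for Cxcl9 (WT liver mouse 1), 0.118 for Cxcr2 (WT liver mouse 2) and 0.134 for Ccl25 (WT liver mouse 1).

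KO tumours and DEN tumours, set against each other, differed in 27 members, 23 higher and 4 lower in KO tumours, beside 57.2% of all genes called, 19.8% higher and 37.4% lower. The median log2 difference was 1.37 over the members, against -0.33 over all genes. The called members included 13 of the 18 receptors, of which 12 were higher in KO tumours. For 18 of the 27 called members the mice did not overlap, beside 7419 of the 13585 genes called in all. Within scan day 2, 25 members were called, 23 of them higher, beside 50.7% of all genes (20.6% higher). With the slide as a random block 19 were called (37.8% of all genes), without Ccl8, Cxcr3, Cxcr5, Cxcr7, Xcr1, Ccl28, Ccr8 and Cxcl1.

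The tumour effect of the KO model minus that of the DEN model was tested as a contrast of its own, and 19 members passed, 18 with the larger effect in KO tumours, beside 30.8% of all genes (12.6% higher and 18.2% lower). With the slide as a random block only Ccl7 and Ccl17 passed, a count near the 3.69% of all genes called in that fit. KO livers differed from WT livers in 2 members, Ccr8 and Ccr9, both lower, beside 8.48% of all genes (1.83% higher and 6.65% lower). Each group enters more than 1 of these comparisons, so they are not independent of each other. Of the 31 members higher in KO tumours than KO livers, 17 (54.8%) were also higher in DEN tumours than WT livers. These 17 are 85.0% of the 20 members called higher in DEN tumours. The matching overlap over all genes was not worked out, so this share cannot be read as particular to the members.

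Sizes depend on the background correction for dim members. The normexp setting adds an offset of 50 units to each corrected signal and so draws dim readings together. In it the fold was over 1.5 times smaller for 26 of the 36 called members in KO tumours against KO livers, 11 of the 23 in DEN tumours against WT livers and 12 of the 27 between the tumours. Folds set against groups with few arrays above background, bounds included, therefore hold only for the scaling used here, and the normexp value is given beside them. The filter also bears on the counts: Ccl11, Ccr4 and Xcr1 were kept only because of the KO tumour arrays, and Ccl28 and Cxcr2 only because of the DEN tumour arrays. With probes above background on 10 or more arrays alone, 32 of the 42 members left were called in KO tumours against KO livers, 28 of them higher. Over all genes 56.7% were called in that setting, 23.2% higher.

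**Figure D1:**
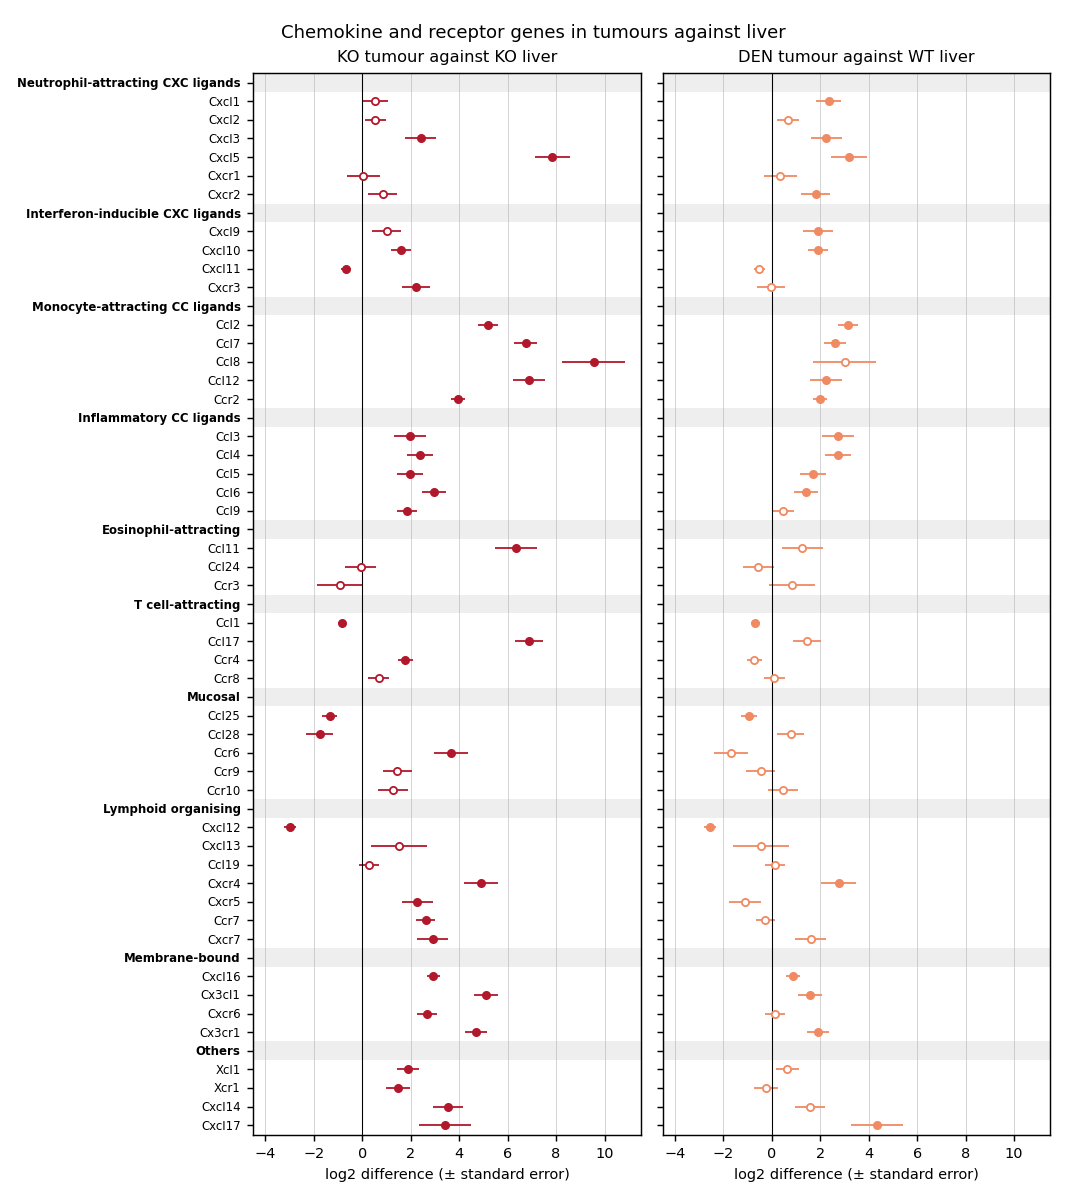
Log2 difference with its standard error for 47 of the 48 members tested, KO tumour against KO liver on the left and DEN tumour against WT liver on the right, ordered by role. Filled points passed an adjusted p of 0.05 (limma) and open points did not. The left panel has 30 filled points above 0 and 5 below, the right panel 19 above and 3 below. Where livers were below background the size of the difference is not measured.

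Ccr2 is a receptor of inflammatory monocytes, and Ccl2, Ccl7 and Ccl12 are among its ligands. With Ccl8 they were grouped by role as 4 monocyte-attracting ligands, with earlier results of these data known. All 4 ligands and Ccr2 itself were higher in KO tumours than KO livers and higher than in DEN tumours. Against WT liver, 4 of these 5 were also higher in DEN tumours. The tumour effect was larger in the KO model for all 5.

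Ccl2 (monocyte chemoattractant protein 1) had log2 levels of 2.92, 3.86, 2.99, 1.98 and 2.78 in KO tumours and 0.03, 2.08, 0.78, -0.24 and 0.61 in DEN tumours, mice in order of number. Ccl2 levels in the livers were -2.10, -2.05, -2.44 and -2.51 in KO mice and -2.85, -1.75, -2.98 and -2.36 in WT mice. Every tumour of either model was above every liver, and DEN mouse 2 reached into the range of the KO tumours. The log2 difference was 5.18 ± 0.42 between KO tumours and KO livers (36.3-fold, limma adjusted p = 1.21e-07) and 3.14 ± 0.42 between DEN tumours and WT livers (8.79-fold, limma adjusted p = 8.36e-05). KO tumours were 4.77-fold above DEN tumours (limma adjusted p = 0.000197). In the normexp setting these Ccl2 folds over liver were 22.3 and 5.45, still called.

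Ccl7, another monocyte attractant, stood at 0.26, 0.51, 0.43, -0.80 and 1.08 in KO tumours and -5.41, -2.45, -4.75, -4.37 and -4.41 in DEN tumours. Ccl7 was not well above background in any liver, with readings of -6.50, -6.23, -6.09 and -6.97 in KO livers and -6.96, -7.17, -6.68 and -6.71 in WT livers. KO tumours were at least 32.0-fold above KO livers (limma adjusted p = 3.16e-08) and DEN tumours at least 1.86-fold above WT livers (limma adjusted p = 0.00079). Here and below "at least" sets the mean of the brighter group against the lowest signal that counted as above background on each dim array. Between KO and DEN tumours, measured on both sides, the log2 difference was 4.57 ± 0.43 (23.8-fold, limma adjusted p = 8.90e-07) with no overlap. With normexp the Ccl7 folds were 10.9 over KO livers and 7.45 over DEN tumours, and the call of DEN tumours against WT livers was lost (log2 difference 0.56, limma adjusted p = 0.121).

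Ccl12, a ligand of Ccr2 known from the mouse, read 0.14, 0.07, -0.64, -0.67 and 1.07 in KO tumours and -4.84, -2.05, -5.10, -4.21 and -4.21 in DEN tumours. Ccl12 was below background in all KO livers, at -7.01, -6.64, -6.56 and -7.36, and in 3 of the 4 WT livers, at -7.15, -7.36, -6.88 and -3.88. WT liver mouse 4 alone was above background and overlapped the DEN tumours. The bound was at least 26.0-fold for KO tumours over KO livers (limma adjusted p = 5.72e-07). KO tumours exceeded DEN tumours 16.9-fold (limma adjusted p = 6.51e-05). By normexp they were 10.6-fold over KO livers and 6.46-fold over DEN tumours for Ccl12.

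Ccl8, known to draw monocytes and T cells, had levels of 3.08, 0.42, 3.21, 2.72 and 5.23 in KO tumours and -2.51, 2.40, -1.89, -0.67 and -2.72 in DEN tumours. In livers Ccl8 read -6.76, -6.35, -6.43 and -6.96 in KO mice, all below background, and -6.42, -5.15, -5.52 and 0.74 in WT mice, where mouse 4 again stood apart. KO tumours were at least 199-fold above KO livers (limma adjusted p = 1.31e-05). DEN tumours did not pass the test against WT livers (log2 difference 3.01 ± 1.30, limma adjusted p = 0.111), but did without WT liver mouse 4 (4.62, limma adjusted p = 0.00543). KO tumours were above DEN tumours by 4.01 ± 1.22 (limma adjusted p = 0.0103), although DEN mouse 2 lay above KO mouse 2. The normexp fold of Ccl8 over KO livers was 74.2.

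Ccr2, a receptor of Ccl2, Ccl7 and Ccl12, had levels of -1.12, -0.74, -0.07, -0.78 and -1.19 in KO tumours and -2.82, -1.85, -1.94, -2.59 and -2.04 in DEN tumours. Ccr2 read -4.70, -4.30, -4.79 and -5.07 in KO livers, all below background, and -4.85, -3.76, -4.45 and -3.92 in WT livers. The 4 groups followed the order KO tumour, DEN tumour, liver without overlap between tumours of the models or between tumours and livers. KO tumours were at least 14.2-fold above KO livers (limma adjusted p = 4.69e-08) and 2.77-fold above DEN tumours (limma adjusted p = 0.000274), and DEN tumours were 3.99-fold above WT livers (limma adjusted p = 0.000148). For Ccr2 the normexp folds over liver were 4.08 in KO tumours and 1.88 in DEN tumours, both called.

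Beside these, 6 of 10 macrophage and monocyte markers were higher in KO tumours than KO livers and 3 were lower. Cd68, Cd14 and Lyz2 were among those higher, by 2.46 ± 0.37, 4.77 ± 0.42 and 4.20 ± 0.46 on the log2 scale. The Kupffer cell markers Clec4f, Timd4 and Marco were lower, Clec4f by -4.67 ± 1.18. The mean of the list was 0.48 to 3.25 in KO tumours and -0.03 to 1.58 in DEN tumours, against 0.94 to 1.23 in KO livers, with WT livers at 0.47 to 1.09. Its part in the ligand results was not tested.

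**Figure D2:**
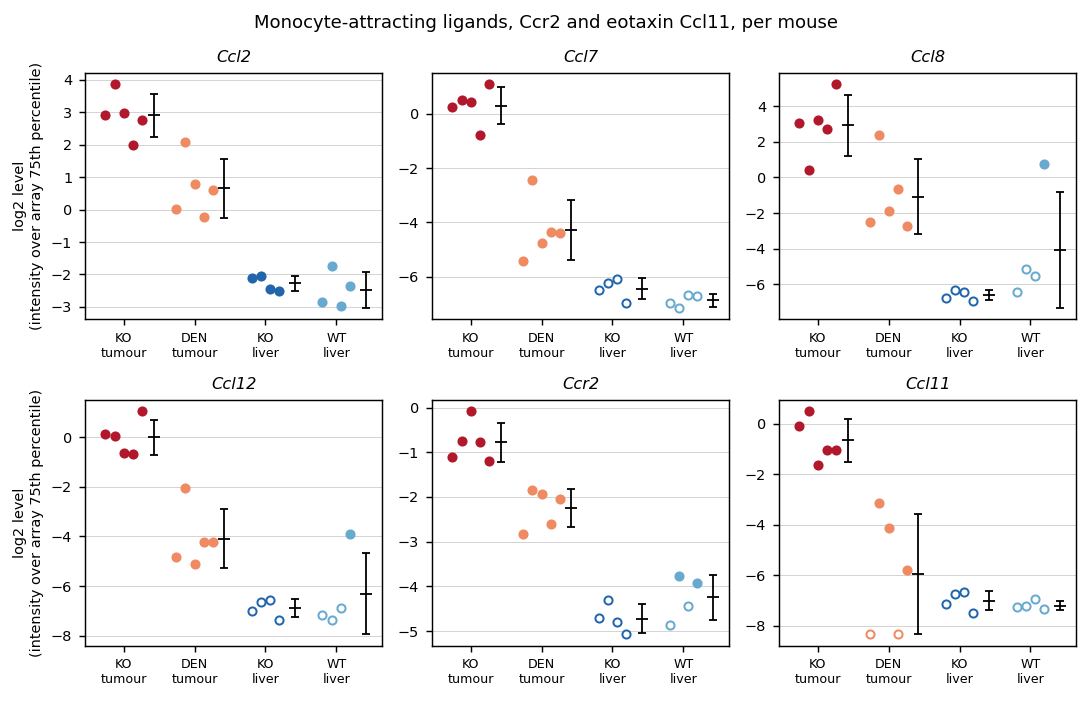
Log2 level per mouse of the 4 monocyte-attracting ligands, of Ccr2 and of the eotaxin Ccl11, with 1 point a mouse and the mean ± SD beside each group. Open points had no array above background. KO tumours lie above KO livers in each panel, and for Ccl7 and Ccr2 the DEN tumours lie between KO tumours and livers without overlap.

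The inflammatory CC ligands, which draw macrophages and T cells, were higher in tumours of both models. All 5 were higher in KO tumours than KO livers, and 4 of them were higher in DEN tumours than WT livers. Ccr1, a receptor of several of them, was above background on 3 of 6 KO tumour arrays and on no other array, and was not tested.

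Ccl3 (macrophage inflammatory protein 1 alpha) stood at -3.25, -1.92, -3.23, -2.88 and -0.40 in KO tumours and -3.63, -1.34, -2.32, -1.71 and -2.00 in DEN tumours. Ccl3 read -4.44, -3.37, -5.10 and -4.32 in KO livers and -4.98, -4.01, -6.86 and -3.87 in WT livers, with 2 of 4 arrays above background in each. Neither pair overlapped, with log2 differences of 1.97 ± 0.67 in the KO model (limma adjusted p = 0.0214) and 2.72 ± 0.67 in the DEN model (limma adjusted p = 0.00819). The Ccl3 call in the KO model was lost without KO mouse 5 (1.49, limma adjusted p = 0.0577) and without KO liver mouse 3 (1.71, limma adjusted p = 0.0685). It was also lost with normexp (0.84, limma adjusted p = 0.0556), where the DEN difference was 1.19 (limma adjusted p = 0.0195). The KO call was lost too with scan day as a fixed block, within scan day 2 and without the KO tumours of the brighter slide.

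Ccl4, its close relative, had levels of -1.25, -1.87, -1.18, -2.12 and 0.02 in KO tumours and -2.19, -0.37, -1.10, -0.31 and -0.69 in DEN tumours. Ccl4 in livers was -3.38, -3.11, -4.44 and -3.78 in KO mice and -4.99, -3.44, -3.96 and -2.19 in WT mice. The tumours of each model lay above their livers, DEN mouse 1 by less than 2 decimals show, with log2 differences of 2.40 ± 0.54 for KO (limma adjusted p = 0.00133) and 2.71 ± 0.54 for DEN (limma adjusted p = 0.00184). The tumours of the models overlapped, and their difference of -0.35 ± 0.51 did not pass (limma adjusted p = 0.576). With normexp the Ccl4 difference over liver was 1.34 in KO tumours and 1.70 in DEN tumours, both called.

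Ccl5 (RANTES), a ligand made by T and NK cells among others, had levels of 2.26, 2.98, 1.90, 2.17 and 3.74 in KO tumours and 0.89, 3.10, 1.75, 3.12 and 2.18 in DEN tumours. Ccl5 stood at 0.75, 0.53, 0.58 and 0.69 in KO livers and -0.05, 0.06, -0.36 and 2.34 in WT livers. WT liver mouse 4 was within the range of the tumours and the other WT livers were below all of them. The log2 difference was 1.97 ± 0.54 for KO tumours over KO livers (limma adjusted p = 0.00622) and 1.71 ± 0.54 for DEN tumours over WT livers (limma adjusted p = 0.0334). KO and DEN tumours differed by 0.40 ± 0.51 (limma adjusted p = 0.524).

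Ccl6 and Ccl9, ligands of Ccr1 known from rodents, were higher in KO tumours than KO livers by 2.97 ± 0.48 and 1.84 ± 0.42, without overlap, and higher than in DEN tumours by 2.53 ± 0.46 and 1.68 ± 0.40. The limma adjusted p of Ccl6 was 8.09e-05 against KO livers and 0.000228 against DEN tumours, and that of Ccl9 was 0.00164 and 0.00197. DEN tumours exceeded WT livers for Ccl6 (log2 difference 1.42 ± 0.48, limma adjusted p = 0.0463). For Ccl9 that difference was 0.47 ± 0.42 (limma adjusted p = 0.474).

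Among the ELR-positive CXC ligands, which draw neutrophils through Cxcr2, the models differed by gene. Cxcl5 was far higher in KO tumours, while Cxcl1 in DEN tumours exceeded both WT livers and KO tumours. Of the 6 members of this group tested, 2 were higher in KO tumours than KO livers, beside 21.5% of all genes. In DEN tumours 4 of the 6 were higher than in WT livers, beside 10.5% of all genes.

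The promoters of Cxcl1, Cxcl2 and Cxcl3 are shown with that of Cxcl10 because these ligands, all on chromosome 5, hold a motif that inducible chemokine promoters are known for. Each sequence covers the bases before and across the gene start in RefSeq (build GRCm38.p6), read 5′ to 3′ along the gene. Capitals mark GGG and TTCC with 3 bases between them, a form of the NF-kappaB site, and GAAA followed 2 bases on by GAAA, a form of the interferon-stimulated response element. Both strands were searched, and overlapping matches run together.
Cxcl1 promoter, chr5:90890995-90891294, plus strand: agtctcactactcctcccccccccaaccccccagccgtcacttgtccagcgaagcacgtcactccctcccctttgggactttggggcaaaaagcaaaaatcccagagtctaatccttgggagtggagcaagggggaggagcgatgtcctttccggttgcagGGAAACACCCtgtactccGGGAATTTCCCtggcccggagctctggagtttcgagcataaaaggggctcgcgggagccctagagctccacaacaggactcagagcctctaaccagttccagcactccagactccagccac
Cxcl2 promoter, chr5:90903649-90903948, plus strand: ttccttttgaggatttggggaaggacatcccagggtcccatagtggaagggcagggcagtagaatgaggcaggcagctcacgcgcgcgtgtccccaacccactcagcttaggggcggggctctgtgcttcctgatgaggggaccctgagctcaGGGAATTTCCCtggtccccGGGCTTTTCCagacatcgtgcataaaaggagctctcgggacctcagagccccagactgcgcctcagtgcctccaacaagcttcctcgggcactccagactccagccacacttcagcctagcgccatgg
Cxcl3 promoter, chr5:90785851-90786150, plus strand: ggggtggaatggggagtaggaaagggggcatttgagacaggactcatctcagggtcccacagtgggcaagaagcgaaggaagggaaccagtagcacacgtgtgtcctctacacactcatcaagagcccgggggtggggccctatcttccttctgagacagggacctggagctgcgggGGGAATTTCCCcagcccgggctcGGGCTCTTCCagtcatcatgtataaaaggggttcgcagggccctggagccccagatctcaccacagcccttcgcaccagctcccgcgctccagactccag
Cxcl10 promoter, chr5:92348840-92349139, minus strand: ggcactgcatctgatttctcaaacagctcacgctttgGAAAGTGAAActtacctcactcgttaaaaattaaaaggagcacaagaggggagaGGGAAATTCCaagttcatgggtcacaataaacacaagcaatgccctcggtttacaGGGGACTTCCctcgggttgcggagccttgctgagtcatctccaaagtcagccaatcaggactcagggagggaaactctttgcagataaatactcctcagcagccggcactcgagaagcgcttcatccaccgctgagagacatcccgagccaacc

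The NF-kappaB motif began at -89, -71 and -70 from the gene start in Cxcl1, the site at -89 and that at -70 on the opposite strand, where the one at -70 overlaps the one at -71, and at -159 and -104 in Cxcl10. It occurred in 1825 of 32851 RefSeq promoters of this length (5.56%) and in the promoters of 9 of the 38 members that had one in the table (23.7%). The 9 were Ccl1, Ccl9, Ccl20, Ccr3, Ccr6, Cxcl1, Cxcl2, Cxcl3 and Cxcl10. The interferon motif occurred in 3.44% of all promoters and in those of Ccl19, Cxcl10 and Cxcl14 (3 of 38, 7.89%). A match is a description of the letters. Members with the first motif did not move alike: in DEN tumours Cxcl1, Cxcl3 and Cxcl10 were higher than in WT livers, Ccl1 was lower by its chosen probe, Cxcl2, Ccl9, Ccr3 and Ccr6 were not called, and Ccl20 was not tested.

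Cxcl1, a main ligand of Cxcr2 in the mouse, stood at -0.75, 0.51, -0.70, 1.34 and -0.04 in KO tumours and 2.31, 0.52, 1.94, 1.86 and 1.98 in DEN tumours. Cxcl1 read 0.71, -0.20, -1.44 and -0.87 in KO livers and -1.15, -0.10, 0.27 and -1.51 in WT livers. KO tumours overlapped KO livers (log2 difference 0.52 ± 0.53, limma adjusted p = 0.425), whereas no DEN tumour overlapped a WT liver (2.34 ± 0.53, 5.07-fold, limma adjusted p = 0.0045). KO tumours were lower than DEN tumours by -1.65 ± 0.50 (limma adjusted p = 0.00954), with KO mouse 4 inside the range of the DEN tumours. The difference between the tumour effects did not pass (-1.82 ± 0.74, limma adjusted p = 0.0727). For Cxcl1 it passed without DEN mouse 2, KO mouse 4, KO liver mouse 3 or WT liver mouse 3, with limma adjusted p between 0.0268 and 0.0493, and after normexp correction (-1.72, limma adjusted p = 0.0404).

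Cxcl5, also a Cxcr2 ligand and known from epithelial cells, read 1.74, 1.25, 2.63, -0.19 and 1.15 in KO tumours and -0.90, -1.42, -4.68, -3.98 and -3.24 in DEN tumours. Cxcl5 was below background in all KO livers, at -6.13, -6.76, -5.95 and -7.29, and in 3 of the WT livers, at -6.83, -5.69, -6.95 and -4.67. KO tumours were at least 65.0-fold above KO livers (limma adjusted p = 3.92e-07) and 17.9-fold above DEN tumours without overlap (limma adjusted p = 0.000116). DEN tumours also passed against WT livers (limma adjusted p = 0.0053), with DEN mouse 3 in the range of the livers, and no size is given because 3 of the 4 livers were below background. That call was lost with normexp (log2 difference 1.25, limma adjusted p = 0.0807), where the Cxcl5 folds of KO tumours were 24.6 over KO livers and 10.4 over DEN tumours.

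Cxcl3 was dim, with levels of -4.55, -2.29, -2.64, -6.34 and -5.20 in KO tumours and -5.43, -4.75, -4.52, -4.82 and -3.44 in DEN tumours. Cxcl3 was not above background in any liver, at -6.60, -6.35, -6.32 and -7.17 in KO livers and -6.75, -6.99, -6.52 and -7.12 in WT livers. The bounds were at least 1.41-fold for KO tumours over KO livers (limma adjusted p = 0.00477) and at least 1.5-fold for DEN tumours over WT livers (limma adjusted p = 0.0185). KO mouse 4 lay within the range of the KO livers. Cxcl2 was above background on 3 KO tumour arrays, 1 DEN tumour array and no liver array, and was not called in any comparison.

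Cxcr2, the neutrophil receptor of these ligands, read -5.33, -4.44, -4.17, -6.53 and -6.87 in KO tumours, above background on 3 of 6 arrays, and -4.61, -5.11, -5.78, -5.18 and -4.31 in DEN tumours, above background on all 7. Cxcr2 was below background in all livers, at -5.87, -6.78, -5.48 and -7.08 in KO mice and -7.28, -7.46, -5.12 and -7.36 in WT mice. DEN tumours were at least 1.13-fold above WT livers (limma adjusted p = 0.0393), though WT liver mouse 3 overlapped them. Cxcr2 passed the filter only through the DEN tumour arrays, the group where it is high. Cxcr1, the related receptor, was not called in any comparison. Of 10 neutrophil markers, 3 were higher and 1 lower in KO tumours than in KO livers, and 2 were higher in DEN tumours than WT livers. Their mean level was -2.24 to 1.29 in KO tumours and -1.87 to 0.72 in DEN tumours, against -2.25 to -1.69 in KO livers, with WT livers at -2.30 to -1.84, and their part in these results was not tested.

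Cxcl9 and Cxcl10, ligands induced by interferon gamma that draw T and NK cells through Cxcr3, were higher in DEN tumours than WT livers, while Cxcr3 itself was not. In KO tumours Cxcl10 and Cxcr3 were higher than in KO livers.

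Cxcl10 had levels of 0.29, 1.36, 0.71, 0.53 and 2.17 in KO tumours and 0.00, 1.58, 1.56, 0.94 and 1.57 in DEN tumours. Cxcl10 stood at -0.72, -0.40, -0.34 and -0.90 in KO livers and -1.27, -0.14, -1.51 and -0.22 in WT livers. Tumours lay above their livers in each model, 3.03-fold for KO (limma adjusted p = 0.00409) and 3.77-fold for DEN (limma adjusted p = 0.0036). The tumours of the models overlapped and differed by -0.12 ± 0.39 (limma adjusted p = 0.814).

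Cxcl9 read -0.42, -0.58, 1.85, 0.65 and 2.88 in KO tumours, the widest spread of the 4 groups, and 0.62, 2.54, 2.41, 1.87 and 1.59 in DEN tumours. Cxcl9 was at -0.40, 0.08, 0.30 and -0.51 in KO livers and -0.89, 0.31, -0.51 and 0.69 in WT livers. DEN tumours were 3.75-fold above WT livers (limma adjusted p = 0.034), with DEN mouse 1 inside the range of the livers. KO tumours and KO livers differed by 1.01 ± 0.61 (limma adjusted p = 0.178). The other Cxcl9 probe gave 1.75 ± 0.61 for DEN tumours over WT livers, just past the threshold on the other side (limma adjusted p = 0.0515). Without KO mouse 5, Cxcl9 was lower in KO than in DEN tumours by -1.43 (limma adjusted p = 0.0237), a comparison that otherwise did not pass (-0.93 ± 0.57, limma adjusted p = 0.176).

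Cxcr3 had levels of -1.18, -0.98, -0.01, -1.25 and 0.97 in KO tumours and -2.82, -2.27, -2.98, -1.91 and -2.44 in DEN tumours. Cxcr3 read -2.54, -2.83, -2.87 and -2.60 in KO livers and -2.89, -3.00, -3.76 and -0.12 in WT livers, where mouse 4 reached the range of the KO tumours. KO tumours lay above KO livers by 2.22 ± 0.58 (limma adjusted p = 0.00447) and above DEN tumours by 1.99 ± 0.55 (limma adjusted p = 0.00568). DEN tumours and WT livers differed by -0.04 ± 0.58 (limma adjusted p = 0.971). Of 11 T and NK cell markers, 4 were higher and 1 lower in KO tumours than in KO livers, and 2 higher and 4 lower than in DEN tumours. With normexp the Cxcr3 difference between KO tumours and KO livers was 1.46, still called.

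Cxcl11, the third ligand of Cxcr3, has a probe that may not measure it alone. It is the only probe of a member that shares a run of 20 bases with probes of several other genes, 7 probes in all on both strands. The run found in most of them, 6 probes, is shown in capitals within bases 20 to 49 of the probe.
Cxcl11 probe, bases 20 to 49: agccaGGGCTACACAGAGAAACCCTatctt
Its levels were 7.24, 7.20, 7.29, 7.19 and 6.42 in KO tumours and 7.64, 6.82, 6.94, 7.34 and 7.50 in DEN tumours, against 7.71, 7.80, 7.71 and 7.73 in KO livers and 7.36, 7.90, 7.68 and 8.11 in WT livers. KO tumours were lower than KO livers by -0.67 ± 0.22 (limma adjusted p = 0.0187). The direction turned after normexp and quantile normalization, and the other Cxcl11 probe gave -0.12 ± 0.32 (limma adjusted p = 0.775).

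**Figure D3:**
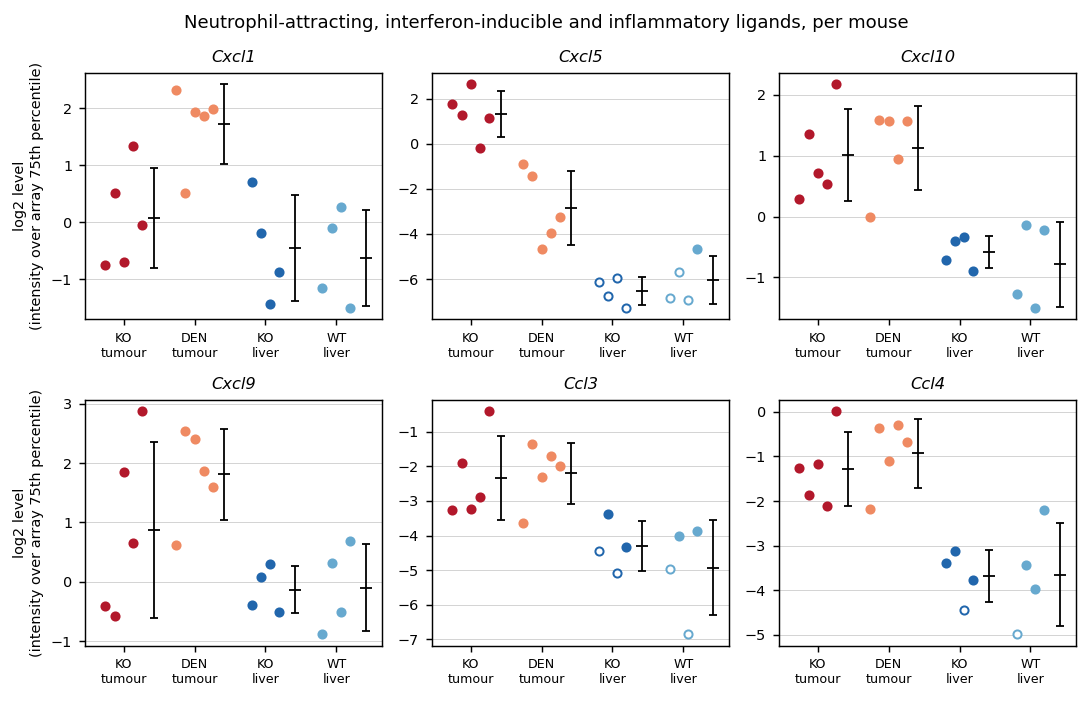
Log2 level per mouse of Cxcl1, Cxcl5, Cxcl10, Cxcl9, Ccl3 and Ccl4, with 1 point a mouse, open where no array was above background, and the mean ± SD beside each group. Cxcl5 separates KO tumours from DEN tumours, Cxcl1 stands higher on average in DEN tumours than in KO tumours, and Ccl3, Ccl4 and Cxcl10 overlap between the tumours of the models.

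The membrane-held ligands and their receptors stood apart in KO tumours. Cx3cl1, Cxcl16, Cx3cr1 and Cxcr6 were all higher in KO tumours than KO livers and than in DEN tumours, without overlap in either comparison, and the difference between the tumour effects passed for all 4.

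Cx3cl1 (fractalkine), an adhesive ligand of endothelial and epithelial cells, stood at 3.22, 3.47, 3.60, 2.81 and 2.64 in KO tumours and -1.66, 1.57, -1.18, -0.96 and 0.10 in DEN tumours. Cx3cl1 in livers was -1.88, -1.91, -1.63 and -2.40 in KO mice and -2.55, -1.30, -2.27 and -1.94 in WT mice. KO tumours were 34.4-fold above KO livers (limma adjusted p = 5.21e-07) and 11.9-fold above DEN tumours (limma adjusted p = 1.39e-05). DEN tumours overlapped WT livers and were 3.0-fold above them on average (limma adjusted p = 0.03). The normexp fold of Cx3cl1 over KO livers was 21.7.

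Cx3cr1, its receptor on monocytes and macrophages, had levels of 3.51, 3.75, 3.53, 3.46 and 2.55 in KO tumours and -0.52, 1.70, 0.06, 0.04 and 0.41 in DEN tumours. Cx3cr1 read -1.39, -0.75, -0.96 and -2.25 in KO livers and -2.46, -0.79, -2.03 and -0.93 in WT livers. The fold was 25.9 for KO tumours over KO livers (limma adjusted p = 4.77e-07), 3.71 for DEN tumours over WT livers (limma adjusted p = 0.00651) and 8.11 for KO over DEN tumours (limma adjusted p = 2.75e-05). The other Cx3cr1 probe gave 4.24 ± 0.58 for KO tumours over KO livers.

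Cxcl16, a scavenger receptor and ligand of macrophages and epithelium, had levels of 2.50, 2.59, 2.40, 1.73 and 1.97 in KO tumours and -0.32, 1.002, -0.53, -0.41 and 0.03 in DEN tumours. Cxcl16 was at -0.59, -0.68, -0.77 and -0.74 in KO livers and -1.27, -0.57, -1.16 and -0.63 in WT livers. KO tumours lay 7.65-fold above KO livers (limma adjusted p = 5.22e-07) and 4.87-fold above DEN tumours (limma adjusted p = 5.46e-06). DEN tumours lay 1.82-fold above WT livers (limma adjusted p = 0.0392), a smaller step without overlap.

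Cxcr6, the receptor of Cxcl16 on T and NK cells of the liver, read 0.21, -0.54, 1.29, -0.84 and 0.67 in KO tumours and -2.72, -1.43, -2.57, -2.01 and -2.26 in DEN tumours. Cxcr6 in livers was -2.33, -2.67, -2.80 and -2.19 in KO mice and -2.04, -3.06, -2.65 and -1.55 in WT mice. DEN tumours overlapped the livers of either genotype, and all 5 KO tumours stood above every other mouse. KO tumours exceeded KO livers by 2.66 ± 0.41 (limma adjusted p = 4.39e-05) and DEN tumours by 2.36 ± 0.38 (limma adjusted p = 9.58e-05). With normexp Cxcr6 exceeded KO livers by 1.87.

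Cxcl12 (stromal cell-derived factor 1) had the largest fall of the members in both models, while its receptor Cxcr4 was higher. Cxcl12 had levels of 2.02, 2.17, 1.93, 2.61 and 2.83 in KO tumours and 2.55, 2.04, 2.01, 3.22 and 2.27 in DEN tumours. Cxcl12 stood at 5.20, 5.35, 5.18 and 5.49 in KO livers and 5.13, 5.12, 4.92 and 4.72 in WT livers. All tumours were below all livers. The log2 difference was -2.99 ± 0.25 in the KO model (limma adjusted p = 1.30e-07) and -2.56 ± 0.25 in the DEN model (limma adjusted p = 3.85e-06). KO and DEN tumours differed by -0.11 ± 0.23 (limma adjusted p = 0.716), and the tumour effects by -0.44 ± 0.35 (limma adjusted p = 0.356). The array has a probe for another transcript of Cxcl12, which was also lower, by -1.54 ± 0.31 in KO tumours and -1.77 ± 0.31 in DEN tumours.

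Cxcr4, present on most leukocytes, stood at -0.32, 0.05, -0.65, -0.52 and 0.08 in KO tumours and -3.76, -0.98, -2.02, -3.35 and -2.82 in DEN tumours. Cxcr4 read -4.87, -5.21, -6.16 and -4.45 in KO livers and -7.18, -4.61, -6.55 and -3.01 in WT livers, above background on 1 of 4 and 2 of 4 arrays. The 5 KO tumours lay within -0.65 to 0.08, above every other mouse. KO tumours exceeded KO livers 29.9-fold (limma adjusted p = 2.30e-05) and DEN tumours 4.98-fold (limma adjusted p = 0.00709), and DEN tumours exceeded WT livers 6.74-fold with overlap (limma adjusted p = 0.0102). Few liver arrays measured Cxcr4, so these folds are uncertain in size, and with normexp they were 5.88 over KO livers, 3.15 over DEN tumours and 1.98 for DEN tumours over WT livers, all called. Cxcr7, the atypical receptor that takes up Cxcl12, was 7.46-fold higher in KO tumours than KO livers without overlap (limma adjusted p = 0.00117) and 3.45-fold higher than in DEN tumours (limma adjusted p = 0.0183).

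**Figure D4:**
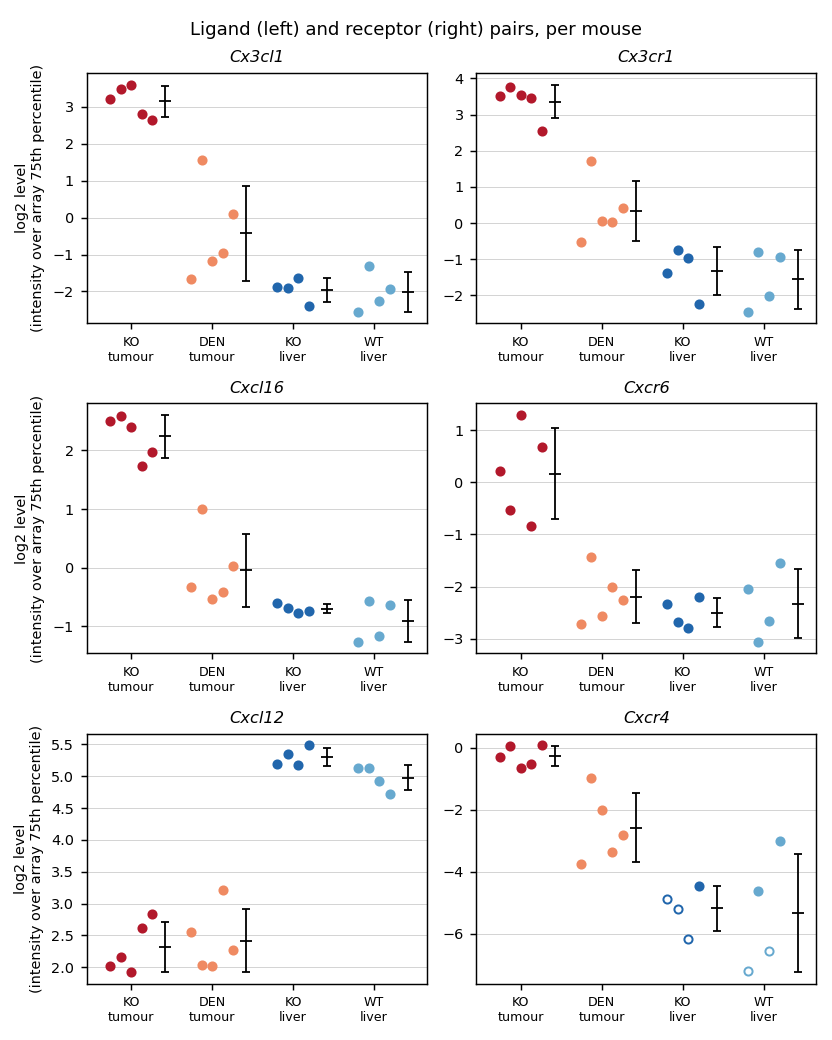
Log2 level per mouse of 3 ligands (left) and their receptors (right), with 1 point a mouse, open where no array was above background, and the mean ± SD beside each group. Cx3cl1 with Cx3cr1 and Cxcl16 with Cxcr6 stand highest in KO tumours; Cxcl12 lies lower in all tumours than in all livers, and Cxcr4 lies higher in KO tumours than in every other mouse.

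Receptors of lymphocytes and dendritic cells were higher in KO tumours, while their ligands were not called by the chosen probes. Ccr7, Cxcr5 and Ccr6 passed against KO livers and DEN tumours and in the contrast of the tumour effects. The ligands Ccl19 and Cxcl13 passed in no comparison, and Ccl20 was not tested.

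Ccr7, which guides T cells and mature dendritic cells to lymphoid tissue, had levels of 0.69, -0.81, 1.12, -0.07 and 0.23 in KO tumours and -2.27, -2.33, -2.47, -1.49 and -1.66 in DEN tumours. Ccr7 read -2.07, -2.23, -3.03 and -2.22 in KO livers and -2.04, -2.05, -2.32 and -0.68 in WT livers. KO tumours lay 6.16-fold above KO livers (limma adjusted p = 3.24e-05) and 4.85-fold above DEN tumours (limma adjusted p = 8.96e-05), without overlap. DEN tumours and WT livers differed by -0.27 ± 0.39 (limma adjusted p = 0.68). Its normexp fold over KO livers was 3.72.

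Ccl19, a ligand of Ccr7, stood at -1.45, -2.37, -0.72, -2.97 and -1.14 in KO tumours and -1.45, -1.18, -0.97, -0.84 and -1.52 in DEN tumours. Ccl19 in livers was -2.02, -2.04, -1.89 and -2.04 in KO mice and -1.91, -1.94, -1.21 and -0.24 in WT mice. The groups overlapped, with log2 differences of 0.27 ± 0.41 in the KO model and 0.13 ± 0.41 in the DEN model (limma adjusted p = 0.608 and 0.858). Another of its 3 probes was higher in KO than in DEN tumours by 1.85 ± 0.62 (limma adjusted p = 0.0188), so that comparison depends on the probe.

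Cxcr5, the B cell receptor that reads Cxcl13, had levels of -3.33, -3.82, -1.76, -2.48 and -0.34 in KO tumours and -3.83, -4.26, -4.53, -3.18 and -4.30 in DEN tumours. Cxcr5 was at -4.18, -4.21, -5.55 and -4.51 in KO livers and -3.63, -3.30, -3.71 and -0.998 in WT livers. KO mouse 5 and WT liver mouse 4 stood highest in their groups. KO tumours exceeded KO livers by 2.27 ± 0.65 (limma adjusted p = 0.00756) and DEN tumours by 1.68 ± 0.61 (limma adjusted p = 0.0266). The call against DEN tumours was lost for Cxcr5 without KO mouse 3 or 5 or DEN mouse 3 or 5, with a limma adjusted p of 0.079 at most, without KO mouse 5 (1.18). The tumour effects differed by 3.38 ± 0.91 (limma adjusted p = 0.011). Within scan day 2 neither Cxcr5 call held, with differences of 1.64 from KO livers (limma adjusted p = 0.0652) and 0.70 from DEN tumours (limma adjusted p = 0.444). With normexp the difference from KO livers was 0.95 (limma adjusted p = 0.0516).

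Cxcl13, which organises B cell follicles, was at -2.79, -2.30, -2.73, -1.50 and 4.72 in KO tumours and -2.62, -1.90, -3.53, -3.48 and -4.51 in DEN tumours. Cxcl13 read -2.47, -3.32, -1.54 and -2.46 in KO livers and -2.58, -3.81, -3.21 and -1.45 in WT livers. KO mouse 5 stood far above all other mice, which overlapped. No comparison passed, with a log2 difference of 1.53 ± 1.16 between KO tumours and KO livers (limma adjusted p = 0.286).

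Ccr6, a receptor of B cells and T helper 17 cells, stood at -0.80, -0.97, 0.85, -0.81 and 0.74 in KO tumours and -3.85, -4.54, -5.42, -2.87 and -4.00 in DEN tumours. Ccr6 read -3.57, -4.68, -3.32 and -3.85 in KO livers and -3.35, -3.32, -3.35 and 0.22 in WT livers, of which mouse 4 lay in the range of the KO tumours. KO tumours were 12.6-fold above KO livers (limma adjusted p = 0.000332) and 15.3-fold above DEN tumours (limma adjusted p = 0.000118). The normexp folds of Ccr6 were 4.73 and 6.15. The tumour effects differed by 5.34 ± 0.98 (limma adjusted p = 0.00102). Ccl20, its ligand, was above background on 2 of 7 DEN tumour arrays and on no other array, with readings of -9.12, -9.04, -9.21, -7.05 and -8.17 in KO tumours, -2.04, -7.73, -7.97, -5.29 and -8.21 in DEN tumours, -7.09, -6.72, -6.61 and -7.43 in KO livers and -7.23, -7.42, -6.90 and -7.30 in WT livers.

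Of 7 B and plasma cell markers, 3 were higher in KO tumours than KO livers and 6 higher than in DEN tumours. Their mean level was -0.19, -2.52, 0.93, -0.13 and 2.49 in KO tumours and -2.71 to -1.34 in DEN tumours, against -2.79 to -2.43 in KO livers. In WT livers it was -2.01, -1.61, -1.82 and 1.59. KO mouse 5 and WT liver mouse 4, high for Cxcr5 and Ccr6, were also highest in these markers. Their part in the receptor results was not tested.

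**Figure D5:**
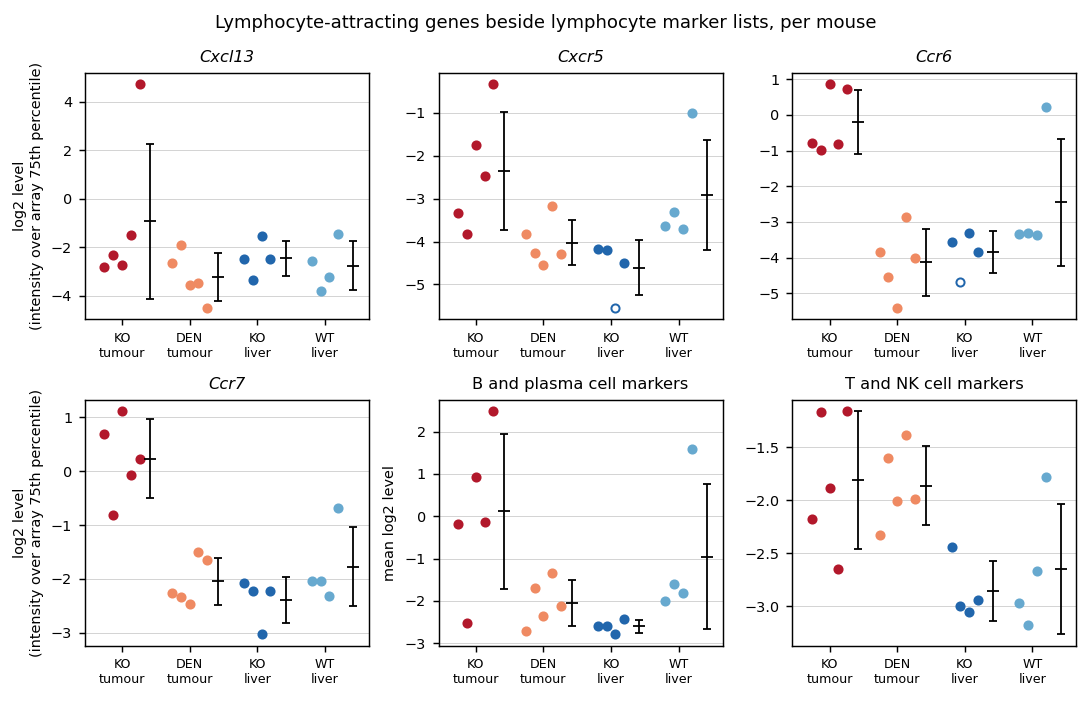
Log2 level per mouse of Cxcl13, Cxcr5, Ccr6 and Ccr7, beside the mean log2 level of 7 B and plasma cell markers and 11 T and NK cell markers, with 1 point a mouse, open where no array was above background, and the mean ± SD beside each group. KO mouse 5 is highest for Cxcl13, Cxcr5 and the B cell list, and WT liver mouse 4 is highest in its group in each panel.

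Ccl17 and Ccl11, known as products of dendritic cells and of stromal and epithelial cells, were also higher in KO tumours than in DEN tumours. Ccl17 (thymus and activation-regulated chemokine) had levels of 0.89, -0.07, 1.89, 0.33 and -1.64 in KO tumours and -5.10, -4.54, -7.01, -5.24 and -4.98 in DEN tumours. Ccl17 was below background in all livers, at -7.10, -6.18, -6.64 and -6.49 in KO mice and -7.22, -6.82, -6.16 and -7.15 in WT mice. KO tumours were at least 31.7-fold above KO livers (limma adjusted p = 1.31e-07) and 50.4-fold above DEN tumours (limma adjusted p = 8.90e-07), without overlap. In the normexp setting these Ccl17 folds were 11.9 and 11.4. DEN tumours and WT livers were not called apart (limma adjusted p = 0.0792), though they were without DEN mouse 3, which was below all other DEN mice (Ccl17 limma adjusted p = 0.0217), and without KO mouse 3 or 5, which enter only through the shared spread (0.0484 and 0.0319). Ccr4, the receptor of Ccl17 on T helper 2 and regulatory T cells, was above background on 5 of 6 KO tumour arrays and on no other array, so it was tested only through the group where it is high. It was at least 2.34-fold higher in KO than in DEN tumours (limma adjusted p = 2.21e-06). Ccr4 also passed against KO livers (limma adjusted p = 0.000158), where its KO tumour level did not exceed the detection limit of the liver arrays and no fold is given. Ccl22, the other ligand of Ccr4, was above background on 1 KO tumour array only.

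Ccl11 (eotaxin 1), a ligand of Ccr3 on eosinophils, stood at -0.09, 0.51, -1.64, -1.04 and -1.05 in KO tumours and -8.35, -3.16, -4.13, -8.34 and -5.79 in DEN tumours, above background on 3 of 7 arrays. Ccl11 was below background in every liver, at -7.14, -6.75, -6.65 and -7.48 in KO mice and -7.27, -7.23, -6.95 and -7.35 in WT mice. KO tumours were at least 16.5-fold above KO livers (limma adjusted p = 1.13e-05) and were higher than DEN tumours (limma adjusted p = 5.12e-05), with no size given because 4 of the 7 DEN tumour arrays were below background. With normexp the Ccl11 folds were 7.74 and 5.8. Like Ccr4, Ccl11 passed the filter only through the KO tumour arrays, the group where it is high. Ccl24, another eotaxin, and Ccr3 passed in no comparison, and Ccl26 was above background on no array. KO mouse 5 and KO liver mouse 2 had high Ccr3, at -0.36 and -0.77.

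A few members besides Cxcl12 were lower in tumours. Ccl25, a ligand of Ccr9 known from gut and thymus, stood at -0.73, -0.02, -0.88, 0.94 and -0.61 in KO tumours and -0.14, -0.79, -0.10, 0.11 and -0.09 in DEN tumours. Ccl25 in livers was 1.08, 0.91, 1.06 and 1.30 in KO mice and 1.22, 0.96, 0.31 and 0.51 in WT mice. KO tumours were lower by -1.35 ± 0.32 with KO mouse 4 overlapping (limma adjusted p = 0.00206), and DEN tumours by -0.95 ± 0.32 without overlap (limma adjusted p = 0.0425). Both other Ccl25 probes that could be tested were lower in KO tumours than KO livers too, by -0.66 ± 0.26 and -1.06 ± 0.40. The second was above background on 8 arrays in all, and its lowest readings in KO tumours were those of mice 4 and 5. Their arrays were the brightest, where a probe below background reads lower, so the differences of KO tumours on it are uncertain. In DEN tumours against WT livers the other probes gave -0.93 ± 0.26 (limma adjusted p = 0.018) and -0.21 ± 0.40 (limma adjusted p = 0.772), so the second did not pass. Both read lower in KO than in DEN tumours, by -0.73 ± 0.25 and -1.33 ± 0.38 (limma adjusted p = 0.0193 and 0.00727). The same limit holds for the second, and by the chosen probe Ccl25 differed by -0.06 ± 0.30. The first also put it lower in KO than in WT livers, by -0.99 ± 0.28 (limma adjusted p = 0.0352).

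Ccl1, a ligand of Ccr8, was lower in KO tumours by the chosen probe and higher by the other. The chosen probe, which carries an Ensembl transcript, read -4.44, -4.08, -4.39, -3.58 and -4.05 in KO tumours and -3.48, -3.42, -3.43, -3.16 and -3.44 in DEN tumours. Its liver levels were -3.20, -3.23, -3.39 and -3.26 in KO mice and -2.59, -2.94, -2.75 and -2.57 in WT mice. KO tumours were lower than KO livers by -0.84 ± 0.18 (limma adjusted p = 0.000761) and DEN tumours lower than WT livers by -0.68 ± 0.18 (limma adjusted p = 0.0111). The other probe, which carries the RefSeq transcript and was above background on 5 arrays in all, gave 2.38 ± 0.39 for KO tumours against KO livers (limma adjusted p = 8.12e-05). No direction for Ccl1 can therefore be given. Ccr8 was lower in KO than in DEN tumours by -1.23 ± 0.40 (limma adjusted p = 0.016) and passed as lower in KO than in WT livers (limma adjusted p = 0.022), with no size given because all KO livers were below background on the chosen probe. The other Ccr8 probe gave -4.20 ± 0.76 for KO against DEN tumours (limma adjusted p = 0.000225) but -1.03 ± 0.84 for KO against WT livers (limma adjusted p = 0.514), which did not pass. On that probe Ccr8 also passed as lower in KO tumours than in KO livers (-2.34 ± 0.80, limma adjusted p = 0.0225). It read -9.05, -7.20, -6.80, -6.42 and -6.54 in KO tumours and -6.97, -5.43, -1.62 and -5.44 in KO livers. KO liver mouse 3 stood far above the others, and mouse 1 lay in the range of the KO tumours. That probe was above background on 13 arrays in all, not listed by group here. The size of both its KO tumour differences is therefore uncertain.

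Ccl28, a mucosal ligand, passed as lower in KO tumours than in KO livers (limma adjusted p = 0.0149) and is counted among the members called lower. It was above background on 1 of 6 KO tumour arrays and no KO liver array, so neither size nor direction is measured. Ccl26, above background on no array, also read lower in KO tumours, at -8.54 on average against -6.91 in KO livers. Ccr9, the receptor of Ccl25, was below background in all KO livers and at least 1.52-fold lower there than in WT livers (limma adjusted p = 0.0259). The liver calls of Ccr8 and Ccr9 were lost without WT liver mouse 3, with limma adjusted p of 0.0859 and 0.0815, and without 1 or another KO liver. That of Ccr9 was also lost with normexp (limma adjusted p = 0.154). Ccr10 passed in no comparison.

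The remaining ligands, Cxcl17, Cxcl14 and Xcl1, rose in KO tumours against KO livers. Cxcl17, known from mucosal epithelium, stood at -1.28, -1.16, -1.04, -6.99 and -2.33 in KO tumours and -1.78, -4.19, 0.00, -2.07 and -3.32 in DEN tumours. Cxcl17 read -5.66, -4.34, -6.57 and -7.39 in KO livers, above background on 1 array, and -7.19, -5.80, -6.87 and -6.55 in WT livers, all below. DEN tumours were at least 7.48-fold above WT livers without overlap (limma adjusted p = 0.00841). KO tumours were higher than KO livers by 3.43 ± 1.07 (limma adjusted p = 0.0134), although KO mouse 4 was below background. With normexp Cxcl17 was 3.14-fold above WT livers in DEN tumours and 2.83-fold above KO livers in KO tumours. Cxcl14, known from epithelium and stroma, was 11.6-fold higher in KO tumours than KO livers without overlap (limma adjusted p = 0.000155), and in DEN tumours it ranged from -1.91 to 1.68 and was not called against WT livers (limma adjusted p = 0.0785). Xcl1, a ligand made by T and NK cells, was at least 1.48-fold higher in KO tumours than KO livers (limma adjusted p = 0.00319). Xcr1, its receptor on cross-presenting dendritic cells, passed in KO tumours against KO livers (limma adjusted p = 0.0201) and against DEN tumours (limma adjusted p = 0.00531). No size is given, because 3 of 7 DEN tumour arrays and no liver array were above background. Xcr1 too passed the filter only through the KO tumour arrays, where it is high.

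Many members lie next to each other in the genome, and position is not part of the rule. By the probe positions in the array files (build mm9), 35 of the 53 members fall into 9 clusters in which neighbours are within 500 kb. On chromosome 11, from 81850650 to 81990510, Ccl2, Ccl7, Ccl11, Ccl12, Ccl8 and Ccl1 lie in this order. The first 5 were higher in KO tumours than KO livers and also higher than in DEN tumours, with a larger tumour effect in the KO model, and Ccl1 at the end was not by its chosen probe. On the same chromosome, from 83339296 to 83478111, Ccl5, Ccl9, Ccl6, Ccl3 and Ccl4 were all higher in KO tumours than KO livers. In that cluster 4 of 5 were higher in DEN tumours than WT livers, and none passed in the contrast of the tumour effects. On chromosome 5, from 91190490 to 91334593, Cxcl5, Cxcl3, Cxcl15, Cxcl1 and Cxcl2 moved apart: 2 of the 4 tested were higher in KO tumours than KO livers and 3 in DEN tumours than in WT livers. On chromosome 8, from 97274709 to 97335829, Cx3cl1 and Ccl17 lie beside each other with Ccl22 and were both higher in KO than in DEN tumours. Among the receptors that lie together on chromosome 9, Cxcr6, Xcr1 and Ccr2 were higher in KO tumours than KO livers, and Ccr9 and Ccr3 were not called. Neighbours share ancestry, and apart from Cxcl11 and Cx3cr1 no chosen probe shared 20 bases with a probe of another gene name.

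Other genes of the pathway, taken from a textbook list, were read beside the members. A list of 22 genes for signal transduction held genes that carry the receptor signal, genes that damp it, and the formyl peptide receptors Fpr1 and Fpr2. Of the 22, 15 were higher and 1 lower in KO tumours than in KO livers, and 5 were higher in DEN tumours than WT livers. Between the tumours 11 were higher and 1 lower in KO tumours. Over all genes 21.5% were higher and 29.5% lower in KO tumours than in KO livers. The shares were 10.5% and 10.9% for DEN tumours against WT livers, and 19.8% and 37.4% for KO against DEN tumours. Rac2, the leukocyte Rac GTPase, was higher in KO tumours than KO livers by 4.78 ± 0.50 (limma adjusted p = 1.12e-06) and than in DEN tumours by 4.01 ± 0.47 (limma adjusted p = 5.78e-06). Vav1, its exchange factor in leukocytes, was higher by 2.23 ± 0.37 and 1.83 ± 0.35 in the same comparisons. Rgs16, which shortens G protein signals, was lower in KO tumours than KO livers by -3.78 ± 0.81 (limma adjusted p = 0.000963).

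Of 8 genes of the NF-kappaB pathway, 4 were higher in KO tumours than KO livers and 6 higher than in DEN tumours, and 3 were higher and 1 lower in DEN tumours than in WT livers. Relb, a subunit of the alternative arm, was higher by 4.49 ± 0.42 in KO tumours over KO livers and by 2.09 ± 0.42 in DEN tumours over WT livers (limma adjusted p = 4.23e-07 and 0.0022). Of 8 cytokines known to induce chemokines, 4 were higher in KO tumours than KO livers. In DEN tumours 1 was higher than in WT livers, a count near the 10.5% of all genes. Tnf passed as higher in KO tumours than KO livers (limma adjusted p = 9.57e-07) but not in DEN tumours against WT livers (limma adjusted p = 0.389). It was above background on 0 of 4 KO liver and 1 of 4 WT liver arrays, so no size is given. Among 8 probes for atypical receptors and further ligands, 1 was higher and 4 lower in KO tumours than in KO livers. Pf4, a platelet and macrophage CXC ligand, was the one higher, by 2.88 ± 0.51 (limma adjusted p = 0.00017). Ackr4, a scavenger of Ccl19 and Ccl25, passed as lower (limma adjusted p = 1.67e-05), but it was above background on 1 of 6 KO tumour and 2 of 4 KO liver arrays, so no size is given. A second probe listed under its older name Ccrl1, above background on 4 of 6 KO tumour arrays and on all KO livers, was lower by -4.38 ± 0.70 in KO tumours. It was also lower in DEN tumours than in WT livers, by -3.25 ± 0.70.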

How the data were processed

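RNA of 21 mouse liver and liver tumour samples had been hybridised to 1-colour Agilent arrays. Per the file headers, the deposited files hold the scanner's intensity for each spot, background-subtracted by Agilent Feature Extraction (version 10.7.3.1 per the submitters' processing notes). The authors' deposited table of values holds log2 values, which matched these intensities after scaling each array on its 75th percentile and centring each probe on its median, and it served as an alternative.

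Here log2 of the processed intensity minus the array's 75th percentile was used. Outlier spots were left out (70 to 397 an array), and the 5 saturated spots were kept. Spots of a probe were averaged, then tumours of 1 mouse. A probe was kept if it was well above background on 4 or more of the 21 arrays (30437 of 39429), and each gene was read from its brightest probe on average (23736 genes). Names came from the probe's accession for 26761 probes, another accession for 102, the symbol for 3746 and the file for 8820. Group means were fitted with limma (version 3.58.1, R 4.3.3) across all genes, with two-sided moderated tests and Benjamini-Hochberg adjustment at 0.05, and the fit was tested on simulated data. The labels do not say that samples of a group are independent beyond the mouse number, read from the titles, so p-values measure the spread between these mice.

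Members written with every mouse's value were the called, non-overlapping members with the 8 highest and 8 lowest changes in each of the 3 tumour comparisons, plus the main ligand and receptor pairs. The members and all lists were chosen with earlier results of these data known. The values of 1 member are not reported here; counts of members include it. Promoter letters came from RefSeq (GRCm38.p6), in which 38 of 53 members had an entry. The alternatives were background correction, scaling, the authors' table, the filter, slide, scan day, single tumours, other probes, and leaving out mice or libraries.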

Additional observations from a re-analysis of the deposited data

Results flagged for a closer look

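Of 132 groups of 4 or 5 mice examined, 15 held 1 mouse far from the others by Dixon's criterion, which chance alone would meet in about 5% of groups. In KO tumours these were mouse 5 for Cxcl13 (4.72), Cx3cr1 (2.55) and Cxcl11 (6.42) and mouse 4 for Cxcl17 (-6.99). In DEN tumours they were mouse 2 for Cxcl1 (0.52) and Ccl25 (-0.79), mouse 3 for Ccl17 (-7.01) and mouse 4 for Ccl1 (-3.16). In KO livers mouse 3 stood apart for Ccl19 (-1.89) and Ccr7 (-3.03). In WT livers mouse 4 stood apart for Ccl5 (2.34), Ccl12 (-3.88), Ccr6 (0.22) and Cxcr5 (-0.998), and mouse 3 for Cxcr2 (-5.12). All are log2 levels on the scale of the report.

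The tumour effect differed between the models for the members named here by the contrast fitted in limma. It was larger in KO tumours by a log2 difference of 6.55 for Ccl8, 5.42 for Ccl17, 5.34 for Ccr6, 5.09 for Ccl11, 4.66 for Cxcl5, 4.65 for Ccl12 and 4.14 for Ccl7. It was larger by 3.52 for Cx3cl1, 3.38 for Cxcr5, 2.90 for Ccr7, 2.80 for Cx3cr1, 2.53 for Cxcr6, 2.50 for Ccr4 and 2.26 for Cxcr3. It was larger by 2.07 for Cxcl16, 2.05 for Ccl2 and 1.94 for Ccr2, and the contrast was -2.54 for Ccl28. For Ccl8, Ccl17, Ccl11, Cxcl5, Ccl12, Ccl7, Ccr2, Ccr4 and Ccl28 at least 1 liver group was below background on every array, so these are fitted values whose size is not measured. For Ccl28 all livers and all but 1 of the KO tumour arrays were below background, so its direction is not measured either.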

How the results depend on the processing

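Directions held under most settings. With the slide as a random block the count of called members was 22 (20 higher, 2 lower) for KO tumours against KO livers, 1 for DEN tumours against WT livers, 0 for KO livers against WT livers and 2 for the difference of the tumour effects. By limma 8.48% of all genes were called between the livers without the block, and 0.08% with it. After normexp and quantile normalization the count was 14 (12 higher, 2 lower) for DEN tumours against WT livers, beside 23.6% of all genes. It was 1 for KO livers against WT livers, beside 7.43%. Leaving out 1 mouse gave 35 to 37 called members for KO tumours against KO livers, 16 to 23 for DEN tumours against WT livers, 26 to 29 between the tumours, 0 to 3 between the livers and 17 to 23 for the difference of effects. The count between the livers was 0 without KO liver mouse 2 or 3 or WT liver mouse 3. Without the KO tumours of the brighter slide the counts were 38, 24, 29, 3 and 23 in that order, beside 54%, 28.7%, 58.8%, 13.6% and 38.8% of all genes. Without the 2 KO tumour mice with no Y-linked transcript above background the counts were 36, 23, 26, 2 and 16. The shares of all genes were then 46%, 23.5%, 50.3%, 9.4% and 27.1%. Without Cxcl11, left out after its values were seen, 35 members differed between KO tumours and KO livers.

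The direction turned for Cxcl11 after normexp, to 0.51 in KO tumours against KO livers, 0.61 against DEN tumours and 0.68 for the difference of effects. It turned for Ccl1 with its other probe (2.38, 2.99 and 2.73 in the same order), and for Ccl19 with another probe (1.85, KO against DEN tumours). The causes were not tested. Of 134 single-member results, 82 kept their side of the threshold with the slide block and 116 after normexp, as did 2315 of 2412 on leaving out a mouse. Results that were not called in the main fit are among those kept. The other 52 under the slide block were all calls that were lost.

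No paired analysis was possible because no label ties a tumour to a liver. Of the 53 members, 23 were below background on all KO liver arrays and 14 on all WT liver arrays, so many folds over liver are bounds. Readings below background follow the brightness of the array.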

Other observations

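Bile duct markers moved with the KO tumours: 5 of 6 were higher than in KO livers, with a median log2 difference of 4.68, and all 6 were higher than in DEN tumours. Their mean level was -0.46 to 2.32 in KO tumours and -4.08 to -1.70 in DEN tumours, against -3.36 to -2.73 in KO livers, with WT livers at -3.44 to -2.50. Of 7 stellate cell and matrix markers 5 were higher and 1 lower in KO tumours than in KO livers, and 5 were higher than in DEN tumours. Of 6 endothelial markers 0 were higher and 4 lower in KO than in DEN tumours (limma adjusted p under 0.05), beside 19.8% of all genes called higher and 37.4% called lower.

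Of the 53 members, 37 were above background on all KO tumour arrays and 39 on all DEN tumour arrays, against 23 on all KO liver arrays and 26 on all WT liver arrays. These are 69.8%, 73.6%, 43.4% and 49.1% of the members, beside 54.5%, 60.9%, 50.5% and 56.0% of all 30450 genes on the arrays in the same order of groups. WT liver mouse 4 had the highest level of its group for Ccl5, Ccl8, Ccl12, Ccl19, Cxcl13, Ccr6, Ccr7, Cxcr3, Cxcr4 and Cxcr5.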
